A study of Mus musculus with 6 samples.

Results

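Itaconate synthesis and the tricarboxylic acid (TCA) cycle were followed through the RNA of 9 enzymes in tumour-associated macrophages of the mouse, the macrophages found inside a tumour. The enzymes were chosen by name, as Acod1, Cs, Aco1, Idh1, Idh2, Idh3a, Ogdh, Fh1 and Mdh2, and all 9 were found among the 21878 genes of the deposited table of read counts. The 6 libraries form 2 groups of 3. WT libraries came from Trmt61a f/f mice, which carry floxed alleles and no Cre, and KO libraries from Trmt61a f/f LysmCre mice, in which Cre is driven from the lysozyme M locus of myeloid cells. The floxed alleles are therefore common to both groups, the Cre and the deletion are not, and a group of mice with Cre alone was not analysed here. MC38 colon carcinoma cells had been injected into all mice, and the macrophages were sorted 14 days later. The sources used here do not give the age and sex of the mice, the sorting gate or whether a library pools mice, and the spread between libraries may be partly technical.

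The TCA cycle joins acetyl-CoA to oxaloacetate as citrate, turns citrate into isocitrate through cis-aconitate, and oxidises the product stepwise back to oxaloacetate in the mitochondrion. Acod1, also known as Irg1, encodes the decarboxylase that takes cis-aconitate out of the cycle and makes itaconate, an acid that inhibits succinate dehydrogenase. In macrophages its transcription is known to be switched on by Toll-like receptor ligands and interferons, whereas the other enzymes are made in nearly all cells. Neutrophils also transcribe Acod1 when activated.

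The sequence before the RefSeq start of Acod1 held fewer CG dinucleotides than that of the cycle enzymes. RefSeq promoter windows (GRCm38.p6) were matched by symbol for 8 of the 9 genes, in 14 windows, and not for Idh3a. In the 250 bases before the RefSeq start, Acod1 held 2 CG dinucleotides and 44.4% G and C. The 13 windows of the other 7 genes held 9 to 35 CG dinucleotides and 50% to 74% G and C, against a median of 6 CG over 32851 windows of all genes. The motif TATAAA, searched on both strands in the last 50 bases before the RefSeq start, was found in the Acod1 window, on the strand of the gene, and in none of the other 13 windows. It occurs in 3.50% of all windows. A match or its absence describes only these letters in this window. The Acod1 and Cs windows are shown because they set the inducible gene of the group beside the enzyme that opens the cycle. Both are on the plus strand, and capitals mark CG dinucleotides and the TATAAA. The Acod1 run ends 10 bases short of the RefSeq start. GENCODE M21 starts the gene further upstream, so the last 25 bases of the run, with the TATAAA and 1 of the 2 CG, lie inside the gene as that annotation has it.
Acod1, chr14:103046762-103047001: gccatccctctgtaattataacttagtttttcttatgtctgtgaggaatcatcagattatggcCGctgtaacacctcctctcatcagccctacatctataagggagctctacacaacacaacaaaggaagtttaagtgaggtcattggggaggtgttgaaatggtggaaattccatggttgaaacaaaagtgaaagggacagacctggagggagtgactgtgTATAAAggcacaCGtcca
Cs, chr10:128337477-128337726: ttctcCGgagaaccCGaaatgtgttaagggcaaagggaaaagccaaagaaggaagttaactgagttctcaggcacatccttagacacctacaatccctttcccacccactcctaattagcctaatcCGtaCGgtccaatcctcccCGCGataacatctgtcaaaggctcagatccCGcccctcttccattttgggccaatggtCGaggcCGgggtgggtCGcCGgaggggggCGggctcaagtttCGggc

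Sequencing depth was similar in all libraries, with 18839026 to 20313597 counts in each. Trmt61a, the deleted gene, was at 8.01, 6.95 and 7.38 CPM in the WT libraries and 2.13, 1.73 and 2.46 CPM in the KO libraries, so all 6 followed their labels. CPM are read counts scaled to a common library size after TMM normalization, which corrects for differences in composition between libraries. Of 12136 genes tested, edgeR's quasi-likelihood test called 2, with the threshold at 0.05 after Benjamini-Hochberg adjustment, a background of 0.0165%. DESeq2 called 29, a background of 0.239%. Macrophage identity genes summed to 16254 to 17748 CPM in WT and 15441 to 17514 CPM in KO. Adgre1, which encodes the macrophage surface protein F4/80, was at 445 CPM or more in every library. Sums of dendritic cell, B cell, epithelial, fibroblast, endothelial, and mast cell and basophil markers overlapped between the groups. The epithelial sum was nearly all Cdh1, with 13921 reads in the 6 libraries together. Epcam had 14 reads and each other epithelial marker 9 or fewer, so this sum followed Cdh1 alone. Sums of T and NK cell markers overlapped narrowly (145 to 180 CPM in WT, 179 to 253 CPM in KO). Most of that sum was Il7r, at 113 to 146 CPM in WT and 150 to 178 CPM in KO, without overlap. Of 14 tested T and NK markers, 13 had positive log2 fold changes of KO over WT and 1 a negative one, where 50.2% of all tested genes were negative. Their median was 0.329. An edgeR unadjusted p under 0.05 with higher values in KO was found for 3, where 3.86% of all tested genes had one. KO replicate 2 had the highest sum of these markers. Without it the log2 ratio of the sums was 0.153, beside 0.317 with all 6 libraries. Cd3d, Cd3e and Cd3g rose above the WT range in KO replicate 2 alone, at 3.52, 2.89 and 5.35 CPM. The markers are therefore not separate indications. Neutrophil markers are given with Acod1.

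All 9 enzymes passed the filter on low counts, with 917 to 9484 reads per library. None was called with edgeR, none with DESeq2, and 1 of 9, Acod1, had an unadjusted p under 0.05 where 6.92% of all tested genes had one, 3.06% with lower values in KO. Of the log2 fold changes of KO over WT, 7 of 9 were negative, where 50.2% of all tested genes were negative, and the median was -0.105 beside -0.000877 over all tested genes. With RLE factors, upper-quartile factors or library totals in place of TMM, the number stayed at 7. The direction of the 2 values nearest to 0, those of Mdh2 and Idh2, depended on single libraries.

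**Figure D1:**
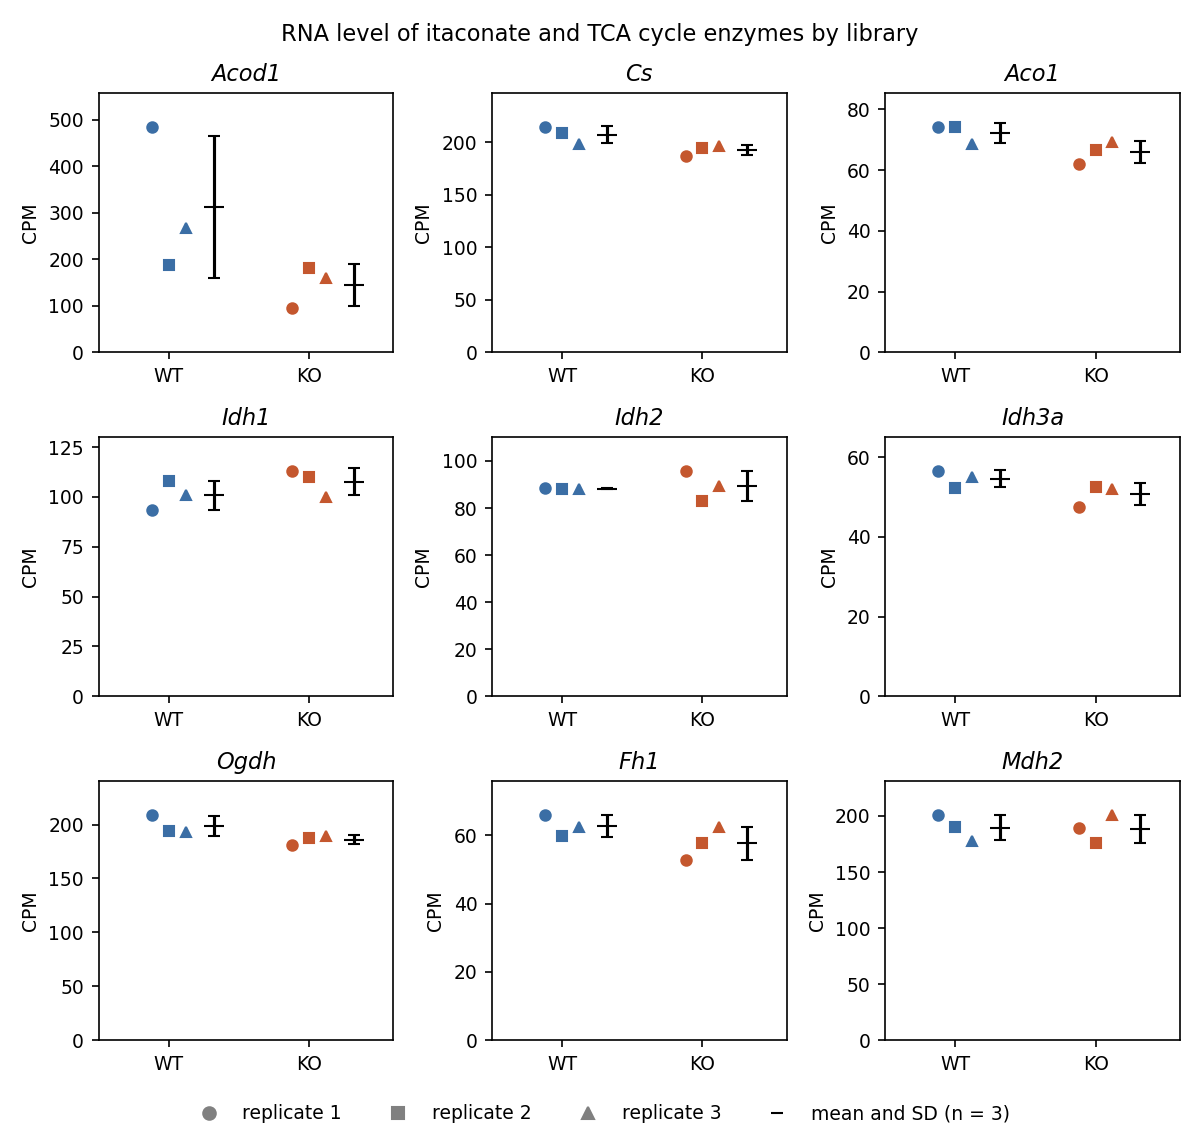
RNA level of each of the 9 enzymes in CPM (vertical axes, each starting at 0) in the 3 WT and 3 KO libraries, with one symbol per replicate number and the mean and SD (n = 3) beside the points. Acod1 spans 94.9 to 484 CPM, while the points of each of the other 8 genes lie close together in both groups.

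Acod1, the itaconate-making enzyme (NCBI Gene 16365, chromosome 14, 103046977 to 103056573, plus strand, GRCm38), was lower in each KO library than in any WT library. It was at 484, 188 and 267 CPM in WT replicates 1, 2 and 3 and at 94.9, 182 and 160 CPM in KO replicates 1, 2 and 3. The groups did not overlap, but the lowest WT library and the highest KO library were close to each other. The means were 313 ± 153 CPM in WT and 146 ± 45.3 CPM in KO (SD, n = 3 each), a fitted KO to WT ratio of 0.465 with a 95% interval of 0.254 to 0.851. The log2 fold change was -1.10 (SE 0.371) and did not pass over all genes (edgeR unadjusted p = 0.0198, adjusted p = 0.701, 332nd smallest p of 12136). Without WT replicate 1, the highest library, it was -0.65, and without any other single library it lay between -1.36 and -0.87. In such sorted bulk samples, fewer cells that make Acod1 and less Acod1 RNA per cell cannot be told apart.

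The spread of Acod1 between libraries of one group was far wider than that of the cycle enzymes. Its within-group SD was 0.601 on the log2 CPM scale, at percentile 99.9 of 748 genes within 0.5 log2 CPM of its mean level, whose median SD was 0.0911. Cs and Ogdh had within-group SDs of 0.0489 and 0.0509, at percentiles 13.3 and 14.3 of genes of like level. The remaining 6 enzymes lay between 0.0689 and 0.1, at percentiles 22.3 to 55.2. The Acod1 comparison therefore rests on much noisier values than the other 8.

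The sum of the neutrophil markers was higher in each KO library than in any WT library, and this separation of the sum was lost without 1 gene, Mmp9. The 12 listed markers summed to 120, 85.5 and 97.5 CPM in the WT libraries and 182, 147 and 132 CPM in the KO libraries (two-sided exact permutation p = 0.1, the smallest that 3 against 3 libraries allow). Of 7 tested, 6 had positive log2 values and 4 an unadjusted p under 0.05 with higher values in KO, where 3.86% of all tested genes had one. These 4 were S100a8 (log2 0.69), Ltf (1.87), Mmp8 (0.55) and Mmp9. KO libraries were all above the WT libraries for 2 of the 7, where 6.11% of all tested genes were. Mmp8 was at 8.06 to 14.2 CPM in WT and 15 to 18.4 CPM in KO. Ltf, with only 3 to 25 reads per library, was at 0.15 to 0.353 CPM in WT and 0.675 to 1.23 CPM in KO. Mmp9, a matrix protease and the most abundant of the neutrophil markers, was at 125 CPM in KO replicate 1 and 30.7 to 64.8 CPM in the other libraries (log2 0.997, and 0.50 without KO replicate 1). Its groups overlapped. Without Mmp9, an alternative chosen after seeing the data, the other 11 markers summed to 72.0, 54.7 and 57.3 CPM in WT and 56.6, 101 and 67.6 CPM in KO, and the groups overlapped (two-sided exact permutation p = 0.6). KO replicate 1, the lowest library for Acod1, was then the lowest of the KO libraries. The defining marker Ly6g had 3 reads in all 6 libraries together, and Camp and Elane 4 each. The other markers besides Mmp9 had more, with Ngp at 29, Cxcr2 at 50, Ltf at 70 and Retnlg at 198 reads. S100a9 had 340, S100a8 729, Mmp8 1616 and Csf3r 4980 reads. The part of these markers in the Acod1 values was not tested.

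The genes whose pattern was most like that of Acod1 were Slc8a1, Sod2, Gbp5, Icam1 and Htr7. Likeness was the Pearson correlation of log2 CPM with Acod1 over the 6 libraries, which share the difference in genotype, and the 5 were the highest of 8444 genes with a mean of at least 10 CPM. Their r values ran from 0.9908 to 0.9965 and their Spearman values from 0.943 to 1.0, which describe these 6 libraries only. Gbp5, an interferon-inducible GTPase, was at 198, 88.4 and 133 CPM in WT and 48.5, 84.0 and 74.7 CPM in KO. Icam1, an adhesion molecule for leukocytes, was at 276, 167 and 184 CPM in WT and 106, 159 and 139 CPM in KO. Gbp5, Icam1 and Slc8a1 had no overlap between groups and the order of Acod1, with WT replicate 1 highest and KO replicate 1 lowest. The genes were picked by likeness to Acod1 in these libraries, so the shared order is not a separate result. Sod2, the mitochondrial superoxide dismutase, was at 270, 190 and 212 CPM in WT and 144, 191 and 172 CPM in KO, and there the groups overlapped. The sodium-calcium exchanger Slc8a1 and the serotonin receptor Htr7 had log2 values of -0.24 (SE 0.0939) and -0.40 (SE 0.148). None of the 5 passed over all genes (edgeR adjusted p of 0.701 to 0.703). With WT replicate 1 left out, Gbp5 was at log2 -0.68, Icam1 at -0.38, Sod2 at -0.25, Slc8a1 at -0.16 and Htr7 at -0.25.

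**Figure D2:**
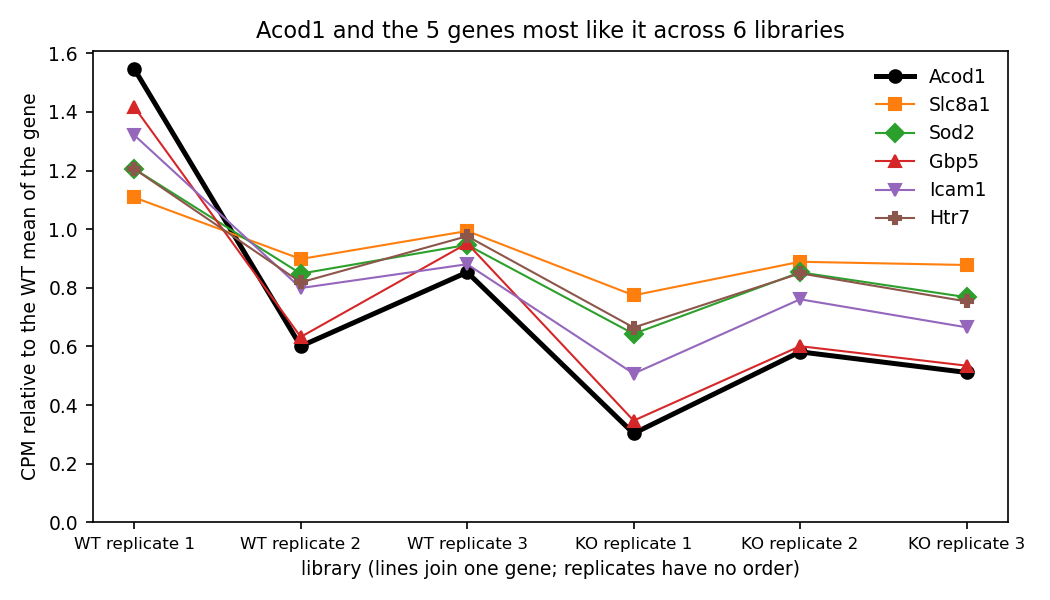
Level of Acod1 and of the 5 genes most like it in each of the 6 libraries, as CPM divided by the mean of the gene in the 3 WT libraries (vertical axis from 0). All 6 lines are highest in WT replicate 1 and lowest in KO replicate 1, and Acod1 has the widest span, from 94.9 to 484 CPM.

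The enzymes that make citrate and turn it into isocitrate had log2 values just under 0. Cs, citrate synthase (chromosome 10, 128337734 to 128362479, plus strand), was at 214, 209 and 198 CPM in WT and 187, 194 and 196 CPM in KO. The groups did not overlap, although WT replicate 3 and KO replicate 3 nearly met. The log2 fold change of -0.11 (SE 0.0671) did not pass (edgeR adjusted p = 0.767), and its 95% interval ran from -16.3% to 2.97%. Csl, a gene similar to Cs by name, had at most 2 reads in any library.

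Aco1 encodes the cytosolic aconitase, which doubles as an iron-sensing regulator of mRNAs when it has lost its iron-sulphur cluster (chromosome 4, 40143081 to 40198338, plus strand). It was at 74.1, 74.1 and 68.5 CPM in WT and 62.1, 66.6 and 69.2 CPM in KO. KO replicate 3 lay above WT replicate 3, so the groups overlapped. KO over WT gave a log2 value of -0.13 (SE 0.0734, edgeR adjusted p = 0.739). Its 95% interval ran from -18.5% to 2.3%.

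The isocitrate dehydrogenases went both ways. Idh1, the cytosolic enzyme that makes NADPH (chromosome 1, 65158616 to 65186500, minus strand), was at 93.5, 108 and 101 CPM in WT and 113, 110 and 99.9 CPM in KO. WT replicate 1 was lowest and the groups overlapped (log2 0.09, SE 0.0806, edgeR adjusted p = 0.814). Idh2, its mitochondrial counterpart (chromosome 7, 80094846 to 80115392, minus strand), was at 88.6, 88.1 and 88.1 CPM in WT and 95.7, 82.9 and 89.3 CPM in KO. The KO libraries lay on both sides of the WT libraries (log2 0.02, SE 0.0728, edgeR adjusted p = 0.961). Per kilobase of exon, Idh1 stood at 0.805 ± 0.0613 of Idh2 in WT and 0.852 ± 0.0738 in KO (SD, n = 3 each), and the ratios overlapped. Idh3a, the catalytic subunit of the NAD-dependent enzyme of the cycle (chromosome 9, 54586334 to 54604661, plus strand), was at 56.5, 52.3 and 55.1 CPM in WT and 47.6, 52.6 and 52.1 CPM in KO. Its log2 value was -0.11 (SE 0.0745, edgeR adjusted p = 0.791), with WT replicate 2 below KO replicate 2.

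Among the later steps, Ogdh showed separated groups and Fh1 and Mdh2 did not. Ogdh, the first subunit of the 2-oxoglutarate dehydrogenase complex (chromosome 11, 6291633 to 6356642, plus strand), was at 209, 194 and 193 CPM in WT and 181, 188 and 189 CPM in KO. KO over WT gave a log2 value of -0.10 (SE 0.0676, edgeR adjusted p = 0.788), with an interval from -15.8% to 3.82%. Fh1, fumarase (chromosome 1, 175600374 to 175625635, minus strand), was at 66.0, 59.8 and 62.5 CPM in WT and 52.8, 57.7 and 62.4 CPM in KO. KO replicate 1 was lowest and KO replicate 3 lay among the WT libraries (log2 -0.12, SE 0.0822, edgeR adjusted p = 0.783). Mdh2, the mitochondrial malate dehydrogenase that closes the cycle (chromosome 5, 135778480 to 135790398, plus strand), was at 201, 190 and 178 CPM in WT and 189, 176 and 201 CPM in KO. Its groups covered the same range, and the log2 value was -0.01 (SE 0.0784, edgeR adjusted p = 0.987).

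**Figure D3:**
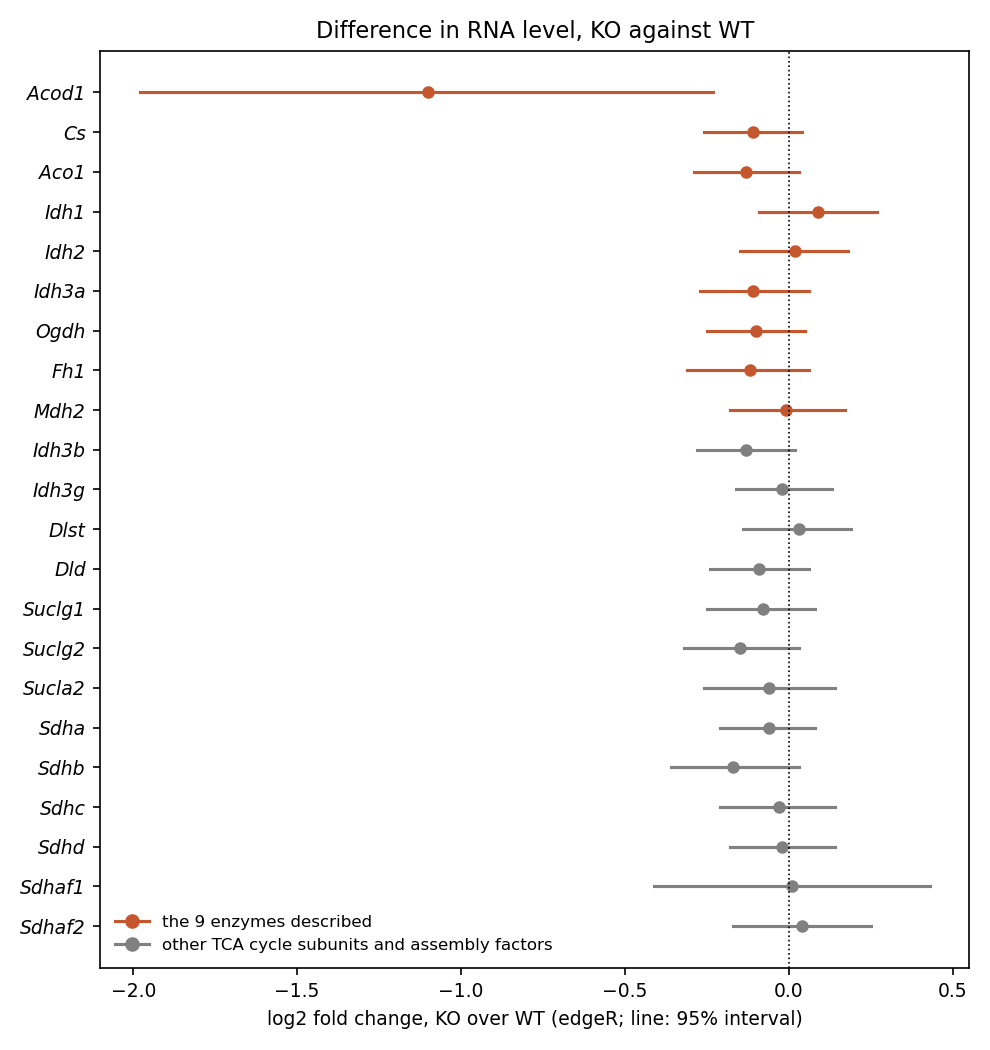
Log2 fold change of KO over WT (horizontal axis, point) with its 95% interval from edgeR (line) for the 9 enzymes and for 13 of the 14 other TCA cycle subunits and assembly factors. The interval of Acod1, from -1.98 to -0.23, lies below 0, and those of the other 21 genes include 0.

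The 95% intervals, each unadjusted and for a single gene, give the range of change that the fit leaves for the 8 enzymes other than Acod1. The lowest bound was that of Fh1, at -19.1%, and the highest that of Idh1, at 21.0%. A change of the size fitted for Acod1, -53.5%, lies outside all 8 intervals. A smaller change within those bounds is not excluded by these intervals. They are no limit of what the test could call, since Acod1 was not called at -53.5%. The 8 enzymes summed to 1002, 976 and 944 CPM in WT and 928, 927 and 959 CPM in KO, and KO replicate 3 lay above WT replicate 3.

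KO libraries were all below the WT libraries for 3 of the 9 enzymes, Acod1, Cs and Ogdh, and all above them for none. Over all tested genes these shares were 6.30% below and 6.11% above. The 3 genes lay apart by small gaps, and with upper-quartile factors the Cs groups overlapped. With RLE factors Idh3a was separated too, and with library totals alone Aco1. KO replicate 1 was the lowest library for 6 of the 9 enzymes (Acod1, Cs, Aco1, Idh3a, Ogdh and Fh1) and the highest for Idh1 and Idh2. WT replicate 1 was the highest for 5 (Acod1, Cs, Idh3a, Ogdh and Fh1) and the lowest for Idh1. These 2 libraries therefore bounded most of the enzymes on opposite sides.

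Leaving out single libraries showed how far the small differences rest on them. Without KO replicate 1 the log2 values of Fh1 and Idh3a were both -0.06, and Idh2 was at -0.04. Without WT replicate 1 those of Ogdh, Idh1 and Mdh2 were -0.06, 0.05 and 0.04. Idh1 was at 0.16 without WT replicate 2, 0.06 without KO replicate 1 and 0.15 without KO replicate 3. With any one library left out, Cs lay between -0.14 and -0.08 and Aco1 between -0.17 and -0.09.

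**Figure D4:**
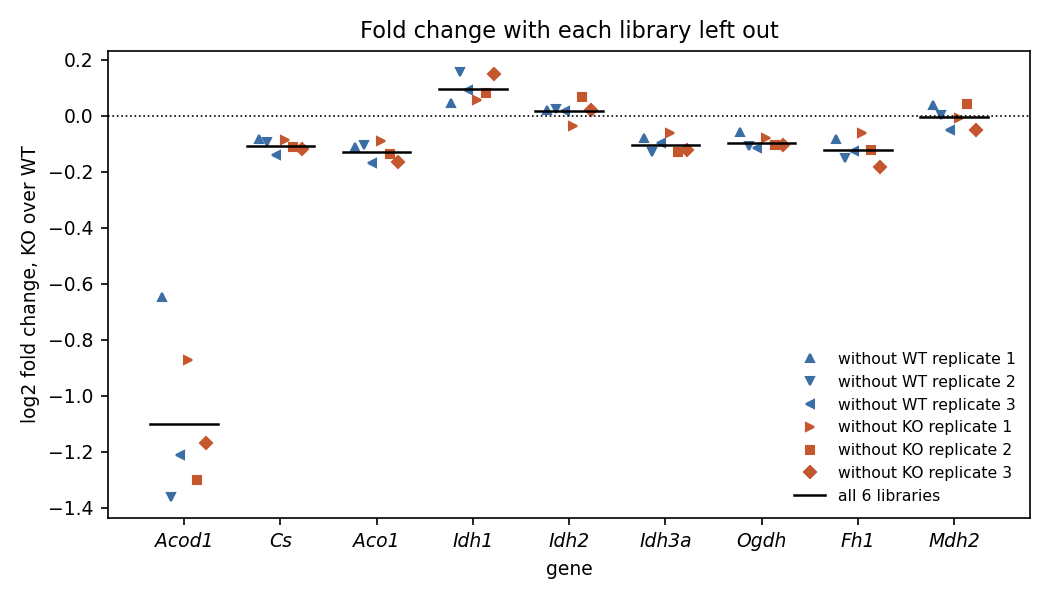
Log2 fold change of KO over WT (vertical axis) for each of the 9 enzymes with all 6 libraries (black bar) and with each library left out (symbols, blue for WT and orange for KO libraries). The values of Acod1 span -1.36 to -0.65, and those of the other 8 genes stay between -0.18 and 0.16.

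Levels of different genes were compared per kilobase of exon, since longer transcripts collect more reads. In WT, Mdh2 was at 130 ± 7.72 CPM per kb and Acod1 at 119 ± 58.4 CPM per kb (SD, n = 3 each), and these 2 did not differ beyond the spread of Acod1. Cs followed at 70.8 ± 2.82 CPM per kb, and its highest library, at 73.2 CPM per kb, reached into the Acod1 range of 71.7 to 184 CPM per kb. Idh2 at 50.6 ± 0.157 CPM per kb stood apart from its neighbours Cs and Ogdh (44.6 ± 2.01 CPM per kb). Ogdh and Idh1 (40.7 ± 3 CPM per kb) overlapped. Fh1 at 23.8 ± 1.18, Idh3a at 21.2 ± 0.836 and Aco1 at 18.9 ± 0.840 CPM per kb were the lowest and did not overlap with each other in WT. In KO, Acod1 was at 55.5 ± 17.3 CPM per kb, in the range of Cs (65.7 ± 1.71), Idh2 (51.2 ± 3.65), Ogdh (41.7 ± 0.935) and Idh1 (43.5 ± 2.78 CPM per kb). Its place among 11750 tested genes with a known exon length was percentile 95.4 in WT and 90.2 in KO, while Cs was at 92.2 and 91.8.

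**Figure D5:**
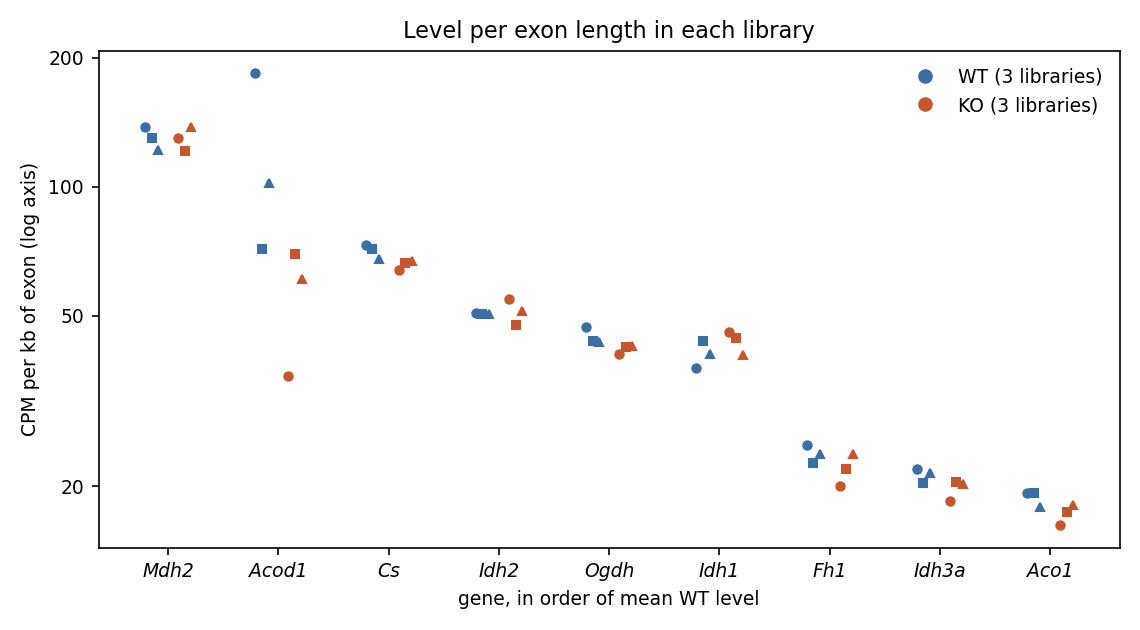
Level per kilobase of exon (vertical log axis, CPM per kb) of the 9 enzymes in each WT (blue) and KO (orange) library, ordered by the WT mean. Acod1 spreads from 36.2 to 184 CPM per kb, across the levels of 5 other genes, and each other gene keeps a narrow band.

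Set against the entry to the cycle, Acod1 was at or above Cs in the WT libraries and below it in 2 of 3 KO libraries. The ratio of Acod1 to Cs per kilobase of exon was 2.52, 1 and 1.51 in WT and 0.567, 1.05 and 0.908 in KO. KO replicate 2 lay above WT replicate 2, so the groups overlapped. The ratio of Acod1 to Idh1, the cytosolic dehydrogenase, was 4.89, 1.64 and 2.51 in WT and 0.791, 1.57 and 1.51 in KO, without overlap. The nearest libraries were at 1.64 in WT and 1.57 in KO. Acod1 by itself was also without overlap, so this ratio is not a separate result.

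No remaining subunit of the cycle was called. Of 14 listed genes 0 were called with edgeR, 0 with DESeq2, and 0 had an unadjusted p under 0.05. Of the 14, 11 had negative log2 values, with a median of -0.053. Idh3b, a partner subunit of Idh3a, was at 96.1, 96.9 and 97.2 CPM in WT and 84.4, 88.8 and 91.8 CPM in KO (log2 -0.13, SE 0.0660, edgeR adjusted p = 0.725). KO libraries were all below the WT libraries for 4 of the 14, where 6.30% of all tested genes were. These were Idh3b, Suclg2 of succinyl-CoA ligase (log2 -0.15, SE 0.0800), the shared dehydrogenase subunit Dld (-0.09, SE 0.0657) and Sdha, the flavoprotein of succinate dehydrogenase. Sdhb, the iron-sulphur subunit of the same enzyme, which itaconate inhibits, was at 108, 96.3 and 101 CPM in WT and 83.0, 88.6 and 101 CPM in KO (log2 -0.17, SE 0.0867). Without KO replicate 1 it was at -0.11, and Dld was at -0.05 without WT replicate 2.

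Genes that feed the cycle or draw from it had 0 calls with edgeR or DESeq2 in any list, and 0 with an unadjusted p under 0.05. For pyruvate entry, 6 of 12 tested genes were negative (median -0.00). Pdk2, a kinase that inhibits pyruvate dehydrogenase, was at 5.66, 6.30 and 6.48 CPM in WT and 7.63, 8.08 and 7.05 CPM in KO (log2 0.30, SE 0.149, edgeR adjusted p = 0.725). Pdhx, Mpc1 and Pdp1 followed by p, at log2 -0.16, -0.12 and 0.22. With one library left out these ran from -0.24 to -0.10, -0.18 to -0.06 and 0.08 (without KO replicate 2) to 0.30. For anaplerosis and the malate-aspartate shuttle, 7 of 15 were negative (median 0.006), including Me1, the cytosolic malic enzyme (-0.39, SE 0.196, and -0.22 without KO replicate 2), beside Got1 at 0.14, Gpt2 at -0.13 and Slc1a5 at 0.11. Got1 and Slc1a5 were both at 0.05 without WT replicate 1, and Gpt2 was at -0.07 without KO replicate 2. For mitochondrial carriers, 8 of 10 were negative (median -0.080), with the aspartate-glutamate carrier Slc25a12 at -0.15 (SE 0.0749), the dicarboxylate carrier Slc25a10 at -0.18 (SE 0.0889), the ADP/ATP carrier Slc25a5 at -0.12 and the phosphate carrier Slc25a3 at 0.14. Slc25a12 was at -0.10 without WT replicate 1 and Slc25a3 at 0.07 without KO replicate 2. For cytosolic use of citrate, 4 of 6 were negative (median -0.098), with Acaca at -0.19 and Fasn at -0.16, enzymes of fatty acid synthesis, and Acss2 at 0.35. With one library left out these ran from -0.27 to -0.11, -0.26 to -0.09 and 0.23 to 0.53, and both enzymes of fatty acid synthesis were nearest to 0 without WT replicate 2.

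No gene for the handling of itaconate was called. Of 12 tested genes 8 were negative, with a median of -0.058, and 0 were called with edgeR or DESeq2 or had an unadjusted p under 0.05. Clybl, the lyase that breaks down citramalyl-CoA made from itaconate, was at 15.2, 15.3 and 12.9 CPM in WT and 16.4, 14.6 and 14.5 CPM in KO. Rab32, a GTPase that helps to deliver itaconate to vacuoles with bacteria, was at 83.0 to 111 CPM in WT and 85.8 to 97.4 CPM in KO. Suclg1 was at log2 -0.08 (-0.05 without WT replicate 1) and D2hgdh at 0.18. Oxgr1, a receptor reported to sense itaconate, had no reads in any library.

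Known regulators of Acod1 transcription mostly had small negative log2 values. Of 16 tested, 12 were negative, with a median of -0.039, and 0 were called with edgeR. DESeq2 called 1, Tlr2, where it called 0.239% of all tested genes. At an unadjusted p under 0.05, 3 were lower and 1 was higher, beside 3.06% and 3.86% of all tested genes. Tlr2, a receptor for bacterial lipoproteins, was at 987, 808 and 820 CPM in WT and 625, 708 and 614 CPM in KO, without overlap (log2 -0.43, SE 0.0975, edgeR adjusted p = 0.694). Nfkb1 was at log2 -0.21 (SE 0.0899) and Tnfaip3, a brake on NF-kappaB signalling, at -0.26 (SE 0.114, and -0.15 without WT replicate 1). Cebpb, a transcription factor of myeloid cells, was at 523, 699 and 554 CPM in WT and 683, 762 and 749 CPM in KO (log2 0.31, SE 0.110). Irf1, a transcription factor of the interferon response looked at after its values were seen, was at 407, 297 and 334 CPM in WT and 216, 337 and 317 CPM in KO. WT replicate 1 was highest and KO replicate 1 lowest, as for Acod1, and the groups overlapped.

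Of genes reported to respond to itaconate, 9 of 15 had negative log2 values, with a median of -0.133. The list was not split by the direction of response reported for each gene. Its count and median therefore give no direction of an itaconate response, which was not tested. None of the 15 was called with edgeR and 1, Nlrp3, with DESeq2, beside 0.239% of all tested genes. At an unadjusted p under 0.05, 5 were lower and 1 was higher, beside 3.06% and 3.86% of all tested genes. The higher one was Atf3, at 345, 510 and 406 CPM in WT and 492, 619 and 540 CPM in KO (log2 0.39, SE 0.144), with overlap. KO libraries were all below the WT libraries for 4 of the 15, Nfe2l2, Nfkbiz, Il1b and Nlrp3, and all above for 0. Over all tested genes these shares were 6.30% and 6.11%. Nfkbiz, which encodes the NF-kappaB cofactor IkappaB-zeta, was at 721, 334 and 445 CPM in WT and 246, 287 and 252 CPM in KO (log2 -0.93, SE 0.248, edgeR adjusted p = 0.701). The groups did not overlap, and without WT replicate 1 the value was -0.57. Nlrp3, which builds an inflammasome, stood at 1363, 1069 and 1102 CPM in WT and 856, 908 and 868 CPM in KO. Il1b, a proinflammatory cytokine, had a log2 value of -0.50 (SE 0.173, and -0.30 without WT replicate 1). Nfe2l2, which encodes the antioxidant regulator NRF2, was at 455, 482 and 432 CPM in WT and 360, 427 and 389 CPM in KO (log2 -0.22, SE 0.0830). Hmox1, a haem-degrading target of NRF2 looked at after its values were seen, was at 263 to 330 CPM in WT and 279 to 332 CPM in KO.

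Partners of Aco1 in iron regulation showed no shared direction. Of 10 tested, 6 were negative with a median of -0.084, and 0 were called with edgeR or DESeq2 or had an unadjusted p under 0.05. Tfrc, the transferrin receptor, was at log2 -0.18 (SE 0.101) and Slc11a2, an iron transporter, at -0.13 (SE 0.0888). Tfrc was at -0.11 without KO replicate 2 and -0.30 without KO replicate 3, where Slc11a2 was at -0.22 and -0.08. Ftl1, the ferritin light chain, was at 0.12 (SE 0.0798, and 0.08 to 0.19 with one library left out), and Nfs1, which supplies sulphur for iron-sulphur clusters, at -0.11 (SE 0.0838).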

How the data were processed

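Polyadenylated RNA of sorted tumour macrophages was sequenced from TruSeq stranded libraries, per the labels. Per the submitters' processing notes, Trimmomatic, HISAT2, Cufflinks, HTSeq and mm10 were used, with no version or role named. The authors deposited raw read counts per gene. The sources used here give neither the annotation nor the strand setting nor the treatment of shared reads. Totals were 18839026 to 20313597 counts per library.

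Genes were filtered with filterByExpr (minimum count 10, minimum total 15), which kept 12136 genes, and scaled by TMM. They were tested with edgeR 4.0.16 in R 4.3.3 (quasi-likelihood, robust shrinkage, genotype as the only term, Benjamini-Hochberg over all tested genes, threshold 0.05). SEs are the log2 value over the root of F, and 95% intervals use the degrees of freedom of the fit. The procedure was tested on simulated data. Exon lengths are unions of GENCODE M21 basic exons on GRCm38, the assembly mm10 names. Marker sums were compared by two-sided exact permutation.

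The members and lists were chosen with earlier results of these data known. Named were the 9 enzymes, Trmt61a, called genes or up to 4 with the smallest p in each of 9 pathway lists, and the 5 genes most like Acod1. The rule also names the most abundant gene of each of 9 marker lists, of which Mmp9, Il7r and Cdh1 are described. A few listed genes enter the counts and are not reported here. Adgre1, the neutrophil markers other than Mmp9, Csl, Sdha, Clybl, Rab32, Oxgr1 and Atf3 lie outside the rule and were picked with their values in view. Cd3d, Cd3e, Cd3g and Epcam were picked in the same way. The alternatives tried were 3 other scalings, 2 filters, DESeq2 1.42.0, limma-voom (limma 3.58.1) with and without quality weights, no robust shrinkage, a replicate block, another threshold and each library left out.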

Additional observations from a re-analysis of the deposited data

How the results depend on the processing

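None of the 9 enzymes was called under any of 16 alternatives. Acod1, Cs, Aco1, Idh1, Idh3a, Ogdh and Fh1 kept their direction in all 16, with adjusted p from 0.316 to 0.999 for Acod1. Idh2 changed direction once, without KO replicate 1, and its values with one library left out ran from -0.0355 to 0.0672. Mdh2 changed direction at 0.00272 with a filter of 1 CPM in 3 libraries, 0.0269 with limma-voom with quality weights, and with WT replicate 1, WT replicate 2 or KO replicate 2 left out (0.0387, 0.00254 and 0.0429), in a range from -0.0511 to 0.0429 over the 6 libraries. The causes were not tested.

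Over all genes, where 2 were called, RLE factors, upper-quartile factors, library totals alone, no filter and limma-voom each gave 1 call, the 1 CPM filter 0, DESeq2 29 and quality weights 4. Leaving out single libraries gave 0 to 5 calls. A threshold of 0.1 left the number at 2. The number of enzymes whose groups did not overlap was 3, and 3 to 6 with one library left out, where over all tested genes up to 15.7% were below and 16.2% above. The same-numbered WT and KO libraries correlated at -0.0574, -0.0941 and -0.109 in their deviations from the group means, so the numbers were not taken to pair them. With the replicate number as a block, 1 gene was called, Acod1 was at -1.03 and no enzyme was called.

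Marker sums near equality changed direction with single libraries left out. The log2 ratio of KO to WT ran from -0.0725 to 0.0242 for macrophage identity, -0.0929 to 0.128 for dendritic cell, -0.154 to 0.24 for epithelial and -0.197 to 0.186 for fibroblast markers. Nearly all of the epithelial sum was Cdh1. The lowest count of an enzyme, 917 reads of Idh3a in KO replicate 1, has a counting error of 3.3%, and every other count of an enzyme was higher and its counting error smaller.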
